A study of Homo sapiens with 6 samples.

Results

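Tns1, which encodes tensin 1, was examined together with the integrins and the adaptors, activators, actin links and kinases of focal adhesions, 38 genes in all among the 22413 genes listed for BaF3-T315I cells. Tns1 was chosen by its own FPKM difference between I13-treated and control cells, the same measurement that is described here, and the other 37 genes were added because they belong to the same structure. The differences between the groups are therefore given as a description, with no p-value, and where genes called by a fit across all genes are counted, nothing is read from the count. Of the 38 genes, 35 had a row in the table, and Tns3, Ptk2 and Parva are not analysed here. The comparison between the groups needed a mean of at least 0.5 FPKM (fragments per kilobase of transcript scaled to the mapped total, a level corrected for gene length and depth) over all samples, which 31 of the 35 genes reached. Tns2, Ilk, Tgfb1i1 and Src did not reach it.

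The cells are BaF3, a mouse cell line of blood origin that normally needs interleukin 3, stably transfected with the BCR-ABL fusion kinase carrying the T315I change, which makes chronic myeloid leukemia resistant to imatinib. All samples are of this 1 transfected line, and whether it is 1 clone is not stated in the sources used here. I13 is an inhibitor of histone deacetylases. mRNA was sequenced from 3 samples labelled as control, whose vehicle the labels do not give, and from 3 samples labelled as treated with 1.1 µM I13, which the study places at 48 h in a figure legend. The labels do not say whether samples of a group came from separate cultures, and the study's statistics section speaks of independent repeats in general without naming the sequencing, so the spread between samples may be technical. The labels name the organism as human and the build as hg38, whereas the gene identifiers in the table are mouse Ensembl identifiers, and the genes are treated as mouse genes here.

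Integrins are paired surface receptors, each of 1 alpha and 1 beta chain, that bind matrix proteins or counter-receptors on other cells. Talin and kindlin bind the tail of the beta chain and switch the receptor to its active state, after which vinculin, filamin, alpha-actinin and other proteins join it to actin, while paxillin, the ILK, PINCH and parvin complex and the kinases of the FAK family relay signals from it. Tensins bind both the integrin tail and actin, and are best known from the mature adhesions of spreading cells. Cells of blood origin, many of which grow in suspension, use the same machinery for contact with stroma and vessel walls, with their own set of chains such as Itgal, Itgb2 and Itgb7 and the kindlin Fermt3.

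The 6 libraries held between 16762119 and 17722950 fragments, recovered from the FPKM steps. On the log2 scale the libraries correlated at 0.962 to 0.968 within groups and at 0.945 to 0.967 between groups, so that the groups stood close to each other over all genes. Samples with the same replicate number deviated together in control and I13 (correlations of 0.145, 0.301 and 0.219 against -0.258 to 0.05 for different numbers), and values are therefore also given pair by pair. Deviations were taken from the mean of each group of 3, so positive correlations of the same numbers by themselves lower those of different numbers. No label states a pairing. Over all 12163 genes tested, limma with Benjamini-Hochberg adjustment called 5 genes without the replicate number as a block, which is 0.0411% (0.0329% higher and 0.00822% lower in I13), and 230 genes with it, which is 1.89% (1.36% higher and 0.526% lower). A call needed an adjusted p below 0.05 and a log2 fold change of at least 0.58 in size. In lists of cell type markers, 3 of 10 fibroblast markers had a row and their summed level was 0.03 to 0.1 FPKM in control and 0.08 to 0.21 in I13. For B lineage cells, 7 of 8 markers had a row and summed to 17.7 to 32.9 FPKM in control and 27.2 to 34.3 in I13, nearly all of it Cd79a and Cd79b, with the defining factors Ebf1 and Pax5 at 0.006 FPKM or less. The blood cell list, with Ptprc and the interleukin 3 receptor chain Csf2rb, summed to 776 to 1347 FPKM in control and 1377 to 2214 in I13 over the 9 of its 10 markers with a row. Most of this sum was Csf2rb, at means of 329 FPKM in control and 588 in I13, and Csf2rb2, at 286 and 572. The mean of Lcp1 was 82.8 FPKM in control and 88.7 in I13, and that of Coro1a was lower in I13, at 154 and 139.

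**Figure D1:**
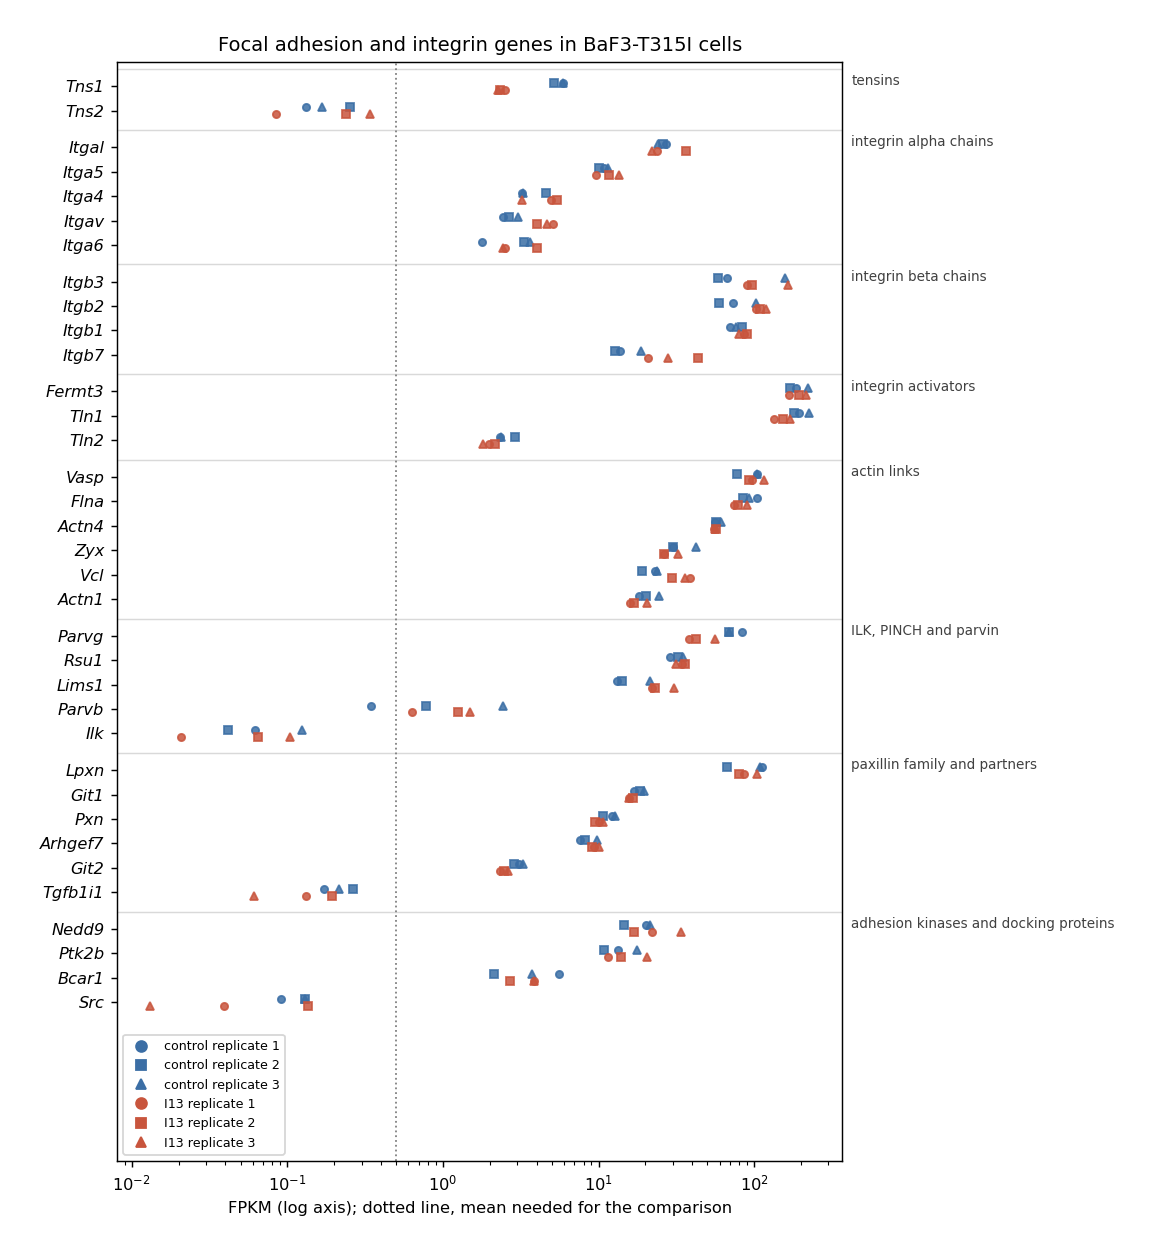
FPKM of the 35 adhesion genes with a row, on a log axis, in each of the 3 control samples (blue) and 3 I13 samples (red), with the marker shape giving the replicate number and the dotted line the mean of 0.5 FPKM needed for the comparison. Tln1 and Fermt3 sit highest, Tns1 lies at 5.19 to 5.94 FPKM in control and 2.27 to 2.49 in I13, and Tns2, Ilk, Tgfb1i1 and Src lie left of the line.

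The 3 control samples gave Tns1 levels of 5.86, 5.19 and 5.94 FPKM, in the order of their replicate numbers, and the I13 samples levels of 2.49, 2.33 and 2.27 FPKM, an order that is kept for all genes that follow. The lowest control sample was above the highest I13 sample by more than the whole range of either group. The mean was 5.66 ± 0.416 FPKM (SD, n = 3) in control and 2.36 ± 0.117 FPKM (SD, n = 3) in I13, a ratio of 0.417 and a log2 fold change of -1.23 with a standard error of 0.12. The 3 pairs differed by -1.20, -1.12 and -1.35 on the log2 scale, so that each pair showed nearly the same size of difference. Between 625 and 1677 fragments lay behind each value. Tns1 was the only gene among the 12163 that was called lower without the block, which is how it came to be chosen. Its mean level in control was at the 42.8th percentile of the genes tested.

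Tns1 made up nearly all of the tensin message that could be measured, 87.0% to 97.8% of the summed FPKM of Tns1 and Tns2 in each sample. Tns2, the related tensin, was at 0.131, 0.252 and 0.168 FPKM in control and at 0.084, 0.240 and 0.338 FPKM in I13, and 7 to 28 fragments lay behind these values. The Tns2 groups overlapped. At this depth no difference in Tns2 was detectable, and the summed tensin level followed Tns1, at 5.85 ± 0.360 FPKM (SD, n = 3) in control and 2.58 ± 0.019 FPKM (SD, n = 3) in I13.

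**Figure D2:**
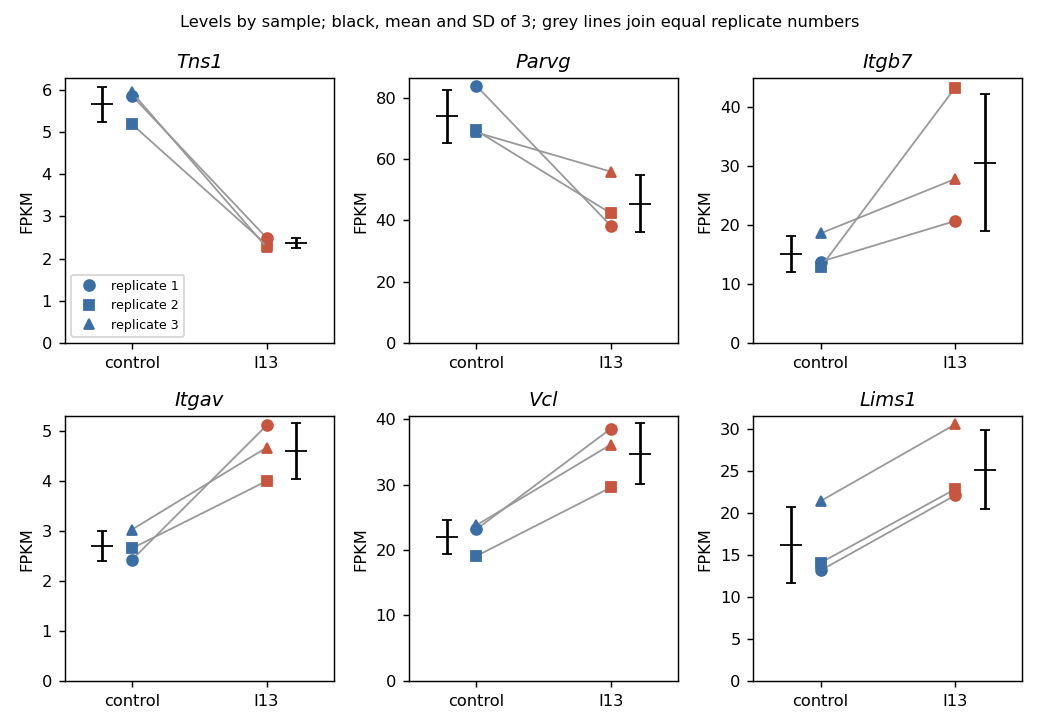
FPKM of Tns1, Parvg, Itgb7, Itgav, Vcl and Lims1 in each sample, with grey lines joining samples of the same replicate number and black bars giving the mean and SD of 3. In these 6 genes no I13 value lies within the range of the control values, with Tns1 and Parvg lower and the other 4 higher in I13.

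Among the integrin alpha chains, the 5 genes listed were all measured, and the mean of each was higher in I13, by 0.05 to 0.74 on the log2 scale, although the sign for Itga5, Itga6 and Itgal turned in 1, 4 and 2 of 20 alternative settings. Itgav alone of the 5 had groups that did not overlap. Itgav pairs with several beta chains, Itgb3 among them, in receptors for vitronectin, osteopontin and other ligands. It stood at 2.43, 2.66 and 3.03 FPKM in control and at 5.12, 4.0 and 4.67 FPKM in I13. The mean was 2.70 ± 0.306 FPKM (SD, n = 3) against 4.60 ± 0.561 FPKM (SD, n = 3), a log2 fold change of 0.74 with a standard error of 0.15.

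Itgal, the alpha chain of LFA-1 and the highest of the 5, was at 27.0, 25.8 and 24.2 FPKM in control and at 23.6, 36.2 and 21.9 FPKM in I13. I13 replicate 2 lay above all other samples and the other I13 samples below all 3 controls, so the groups overlapped, with a log2 fold change of 0.05 and a standard error of 0.19. Itga5, the alpha chain of the classical fibronectin receptor, ranged from 10.0 to 11.4 FPKM in control and from 9.57 to 13.5 FPKM in I13. Itga4, which pairs with Itgb1 or Itgb7 in receptors for VCAM-1 and MAdCAM-1, ranged from 3.22 to 4.62 FPKM and from 3.23 to 5.38 FPKM. Itga6, a laminin receptor chain, ranged from 1.78 to 3.61 FPKM and from 2.44 to 4.03 FPKM. In all 3 genes the ranges overlapped.

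In control cells the order of the alpha chains by FPKM was Itgal, then Itga5 at a level lower by 2.38-fold, then Itga4, Itga6 and Itgav, whose control ranges overlapped from one to the next. Orders, fold gaps and shares between genes rest throughout on the gene lengths behind the FPKM, which were not checked against an annotation. Itgal made up 47.9% to 59.5% of the summed level of the 5 chains. The summed level was 45.7 ± 0.584 FPKM (SD, n = 3) in control and 50.9 ± 8.95 FPKM (SD, n = 3) in I13, where replicate 2, at 61.2 FPKM, was the only sample outside 45.3 to 46.4 FPKM. The share of Itgav was 5.91% ± 0.671 (SD, n = 3) in control and 9.32% ± 2.45 (SD, n = 3) in I13, and I13 replicate 2, at 6.54%, lay below the highest control at 6.66%. Itga2b, the megakaryocyte alpha chain that pairs only with Itgb3 and which belongs to the wider list described later, was above the sum of all 5 chains, at 102, 95.2 and 153 FPKM in control and at 93.0, 108 and 126 FPKM in I13, with a log2 fold change of -0.08.

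**Figure D3:**
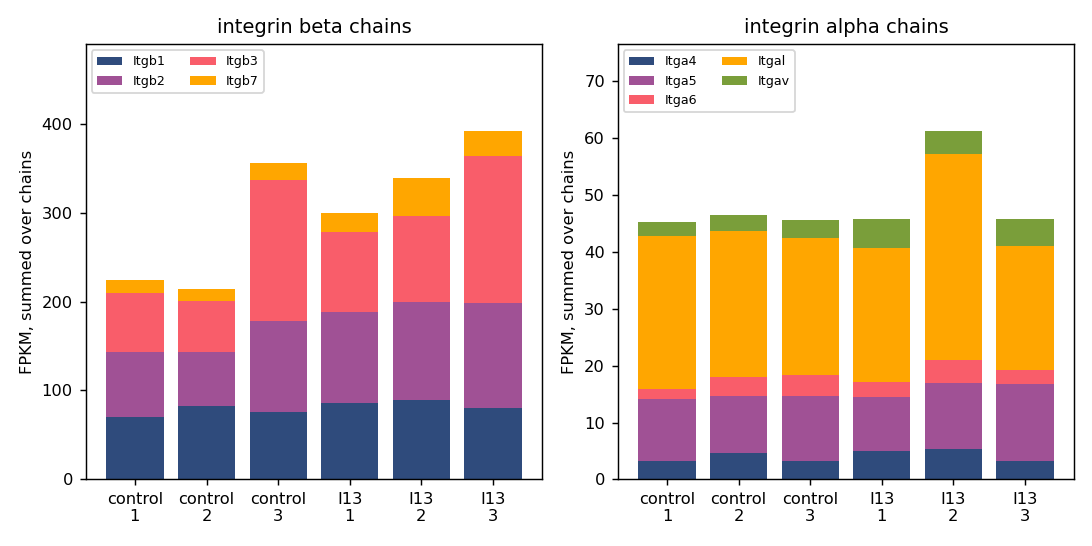
FPKM of the 4 beta chains (left) and the 5 alpha chains (right) stacked within each of the 6 samples, without Itga2b. The beta chain sum ranges from 214 to 355 FPKM in control and from 299 to 392 FPKM in I13, with control replicate 3 and I13 replicate 3 the highest of their groups, while the alpha chain sum stays between 45.3 and 46.4 FPKM in all samples but I13 replicate 2.

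The 4 beta chains were higher in I13 in each of the 3 pairs. Itgb7, which with Itga4 forms a homing receptor of lymphocytes for the gut, showed the largest log2 fold change of the 31 genes in the upward direction. It stood at 13.8, 12.8 and 18.6 FPKM in control and at 20.7, 43.3 and 27.8 FPKM in I13. The groups did not overlap, but I13 replicate 2 was far above the other I13 samples. The mean was 15.1 ± 3.09 FPKM (SD, n = 3) in control and 30.6 ± 11.6 FPKM (SD, n = 3) in I13, a log2 fold change of 0.97 with a standard error of 0.27. Leaving out 1 sample at a time moved it between 0.69 and 1.22.

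Itgb2, the common beta chain of leukocyte integrins and the partner of Itgal, was at 59.8 to 102 FPKM in control and at 103 to 119 FPKM in I13. The groups were separated by a narrow gap, since control replicate 3 (102.2 FPKM) and I13 replicate 1 (102.8 FPKM) were nearly equal. Its log2 fold change was 0.53 with a standard error of 0.19. Itgb1, the beta chain with the widest choice of partners, ranged from 70.0 to 83.0 FPKM in control and from 79.8 to 89.4 FPKM in I13, and the groups overlapped.

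Itgb3, the partner of Itgav and Itga2b and the highest beta chain on average, was at 67.0, 58.1 and 158 FPKM in control and at 89.9, 96.7 and 166 FPKM in I13. Both samples of replicate 3 stood far above the others of their group, and control replicate 3 was above 2 of the 3 I13 samples. The log2 fold change was 0.41 with a standard error of 0.40, which became 0.13 once the replicate number was a block, and the fold change took values from 0.13 to 0.85 as single samples were left out. In control, Itgb3, Itgb2 and Itgb1 could not be ordered, since each range overlapped the next, and Itgb7 was lower than Itgb1 by 5.07-fold. Itgb3 made up 44.6% of the beta chain sum in control replicate 3 and 42.3% in I13 replicate 3, and 27.2% to 30.0% in the other 4 samples. The share of Itgb7 was 5.80% ± 0.493 (SD, n = 3) in control and 8.94% ± 3.33 (SD, n = 3) in I13.

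Talin 1 and kindlin 3 were among the most abundant of these messages. Fermt3, the kindlin of blood cells, was at 185, 170 and 222 FPKM in control and at 168, 195 and 215 FPKM in I13. The groups lay over each other, with a log2 fold change of 0.004 and a standard error of 0.14. Tln1, which encodes talin 1, was at 193, 179 and 226 FPKM in control and at 133, 154 and 170 FPKM in I13, a log2 fold change of -0.39 with a standard error of 0.13. Its groups did not overlap, although the lowest control and the highest I13 sample were close. Tln2, the related talin, ranged from 2.33 to 2.91 FPKM in control and from 1.80 to 2.17 FPKM in I13, also without overlap, with a log2 fold change of -0.33 and a standard error of 0.16. In control, Tln1 and Fermt3 overlapped, and Fermt3 was 76.0-fold above Tln2. Tln1 made up 98.4% to 99.0% of the talin level in every sample.

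The actin links differed in both directions. Vcl, which encodes vinculin, a protein that binds stretched talin and actin, was at 23.1, 19.1 and 23.8 FPKM in control and at 38.5, 29.5 and 36.1 FPKM in I13. Every I13 sample was above every control sample. The log2 fold change was 0.65 with a standard error of 0.14, or 0.07 with the replicate block, and it ranged from 0.56 to 0.77 as samples were left out one at a time. Vcl was the only one of the 6 actin links whose groups did not overlap.

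Vasp, which promotes the growth of actin filaments and was the highest of the group, was at 104, 77.0 and 104 FPKM in control and at 96.3, 93.1 and 116 FPKM in I13, with control replicate 2 the lowest sample. Flna, the actin cross-linker filamin A that competes with talin for integrin tails, ranged from 84.5 to 104 FPKM in control and from 73.7 to 89.8 FPKM in I13. Zyx, encoding the LIM protein zyxin, ranged from 30.0 to 42.4 FPKM and from 26.2 to 32.5 FPKM. Of the alpha-actinins, which bundle actin, Actn1 was at 18.2 to 24.6 FPKM and at 15.9 to 20.3 FPKM, and Actn4 at 56.1 to 60.9 FPKM and at 54.9 to 57.1 FPKM. Zyx, Actn1 and Flna were lower in I13 in each of the 3 pairs, with log2 fold changes of -0.26, -0.24 and -0.21, although their groups overlapped. Actn4 made up 71.3% to 77.5% of the alpha-actinin level. In control, Vasp overlapped with Flna, and Vcl with Actn1.

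Within the ILK, PINCH and parvin group, the differences went in both directions. Parvg, the parvin of blood cells, was at 83.8, 69.2 and 68.6 FPKM in control and at 38.2, 42.2 and 55.8 FPKM in I13. The groups did not overlap, and the pair of replicate 3 differed least. The mean was 73.9 ± 8.60 FPKM (SD, n = 3) in control and 45.4 ± 9.25 FPKM (SD, n = 3) in I13, a log2 fold change of -0.71 with a standard error of 0.16. Parvg made up 96.6% to 99.6% of the summed level of Parvb and Parvg, and the sum was 75.1 ± 7.89 FPKM (SD, n = 3) in control and 46.5 ± 9.64 FPKM (SD, n = 3) in I13. Parvb was at 0.345, 0.783 and 2.42 FPKM in control and at 0.630, 1.26 and 1.5 FPKM in I13, and its log2 fold change of 0.23 took values from -0.36 to 0.90 when samples were left out one at a time, so no direction is given.

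Lims1, which encodes the LIM adaptor PINCH1, was at 13.2, 14.1 and 21.5 FPKM in control and at 22.1, 22.9 and 30.6 FPKM in I13. Replicate 3 was the highest sample of each group, and the lowest I13 sample was just above the highest control sample. The log2 fold change was 0.65 with a standard error of 0.21, and of 0.08 with the block, since the 3 pairs differed by nearly the same amount. Rsu1, a partner of PINCH, ranged from 28.6 to 34.7 FPKM in control and from 31.6 to 35.9 FPKM in I13. Ilk, the pseudokinase at the centre of the complex, was listed at only 0.021 to 0.124 FPKM, from 1 to 6 fragments a sample, so that its level could not be compared. Whether reads of Ilk or of any other gene were shared with a neighbouring gene was not examined, since no mouse annotation was used here.

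Of the paxillin relatives and partners, 4 were lower and 1 was higher in I13, none past 0.58 on the log2 scale. Lpxn, the leupaxin of blood cells, was the highest, at 112, 67.0 and 110 FPKM in control and at 86.0, 79.2 and 104 FPKM in I13. Control replicate 2 was the lowest of all 6 samples, and the groups overlapped. Lpxn made up 85.9% to 90.6% of the paxillin family level. Pxn, which encodes paxillin itself, ranged from 10.7 to 12.8 FPKM in control and from 9.41 to 10.7 FPKM in I13, a log2 fold change of -0.25 with a standard error of 0.11. Its groups were separate by a gap of less than 0.1 FPKM. Git1 and Git2, scaffolds that bind paxillin and bring the exchange factor Arhgef7 to adhesions, were also lower without overlap, with log2 fold changes of -0.20 and -0.30. Git1 was at 17 to 19.7 FPKM in control and 15.7 to 16.7 FPKM in I13, and Git2 at 2.87 to 3.27 FPKM and 2.33 to 2.63 FPKM. Arhgef7 ranged from 7.56 to 9.76 FPKM and from 9.01 to 10.1 FPKM, with overlap. Tgfb1i1, the paxillin relative Hic-5, was near the floor at 0.061 to 0.264 FPKM, from 6 to 26 fragments. In control the order by FPKM was Lpxn, Git1, Pxn, Arhgef7 and Git2, with no overlap between neighbours. This order rests on gene length. In control replicate 1, Arhgef7 had 2111 fragments over 15751 bases and Git1 had 1455 over 4838 bases.

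None of the 3 adhesion kinases and docking proteins that were compared had groups that did not overlap. Nedd9, a docking protein phosphorylated downstream of integrins, was at 20.1, 14.5 and 21.4 FPKM in control and at 21.9, 16.8 and 34.1 FPKM in I13. I13 replicate 3 stood above the other 5 samples, and the log2 fold change of 0.33 had a standard error of 0.27. Ptk2b, the FAK relative Pyk2, ranged from 10.8 to 17.6 FPKM in control and from 11.4 to 20.6 FPKM in I13. Bcar1, the docking protein p130Cas, ranged from 2.12 to 5.58 FPKM and from 2.70 to 3.87 FPKM, and Nedd9 made up 78.2% to 89.8% of the level of both docking proteins. Src, the founding member of its kinase family, was listed at 0.013 to 0.136 FPKM, from 1 to 10 fragments. In control the ranges of Nedd9 and Ptk2b overlapped.

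**Figure D4:**
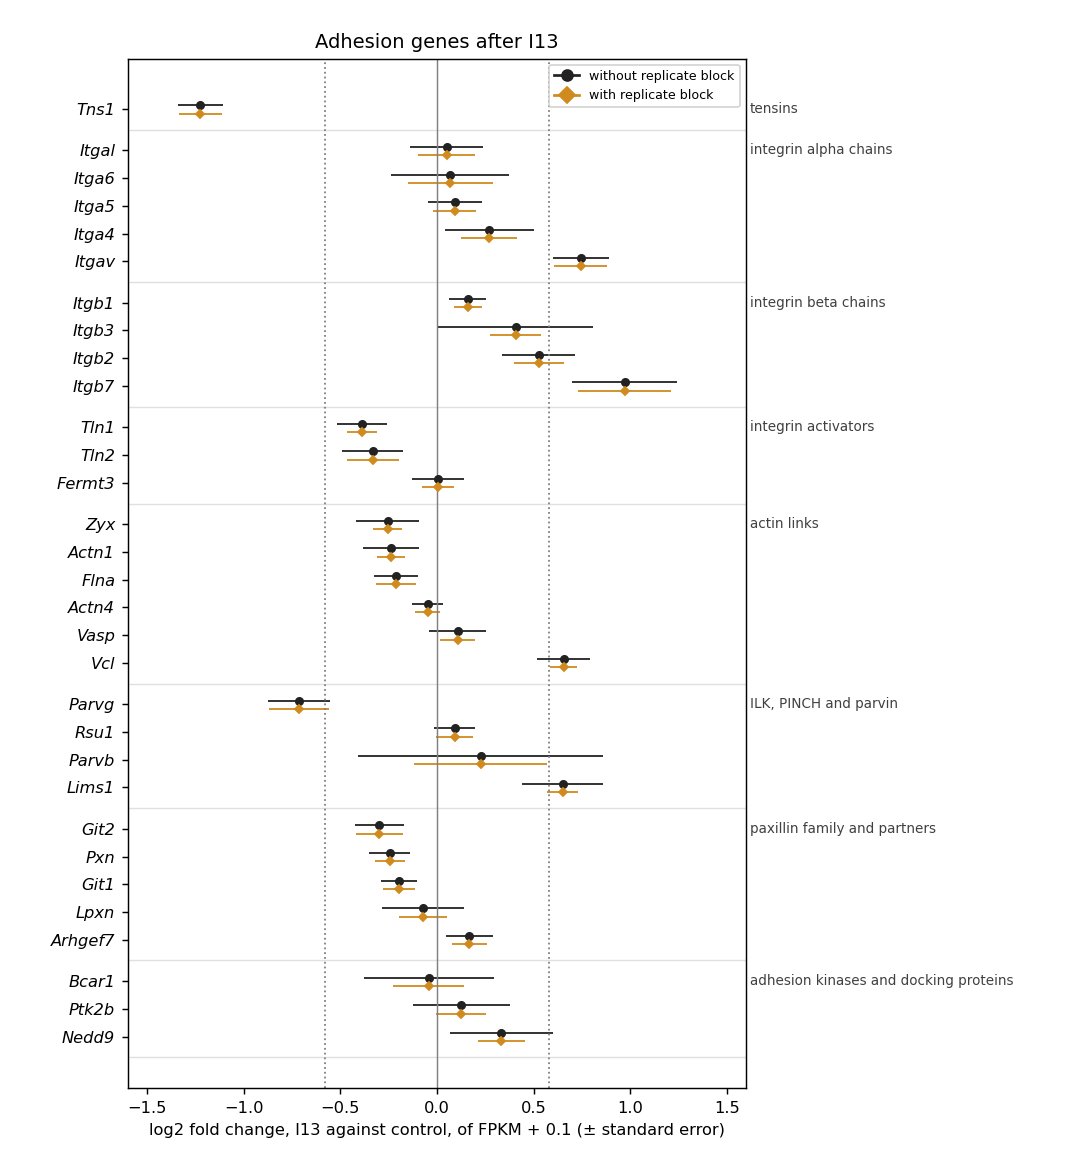
Log2 fold change of FPKM + 0.1 in I13 against control for the 31 genes compared, grouped by role, with standard errors without (black) and with (orange) the replicate number as a block and dotted lines at 0.58 in either direction. Tns1 (-1.23) and Parvg (-0.71) lie beyond the left line, and Vcl, Lims1, Itgav and Itgb7 (0.65 to 0.97) beyond the right line.

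Over the 31 genes compared, 18 were higher and 13 lower in I13, with a median log2 fold change of 0.068, beside a median of -0.005 and 49.2% higher over all genes tested. Without Tns1 the median of the other 30 was 0.079. Groups did not overlap in 12 genes (38.7%), beside 25.2% of all genes tested. Of these, Itgav, Itgb2, Itgb7, Vcl and Lims1 were the 5 higher in I13, a direction found in 9.82% of all genes. Tns1, Parvg, Tln1, Tln2, Pxn, Git1 and Git2 were the 7 lower, a direction found in 15.4%. All 3 pairs were higher in 9 genes (29.0%, beside 24.1% of all genes) and lower in 10 (32.3%, beside 27.3%). The rule chose Tns1 on this same contrast, and nothing is read from these counts.

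Only Tns1 was called without the block, and Tns1, Lims1 and Vcl were called with it, which is 3 of 31 genes beside 1.89% of all genes tested. The Tns1 call without the block was lost when any 1 sample was left out, and no gene of the 31 was called with the block when replicate number 1, 2 or 3 was left out whole. Its fold change stayed between -1.29 and -1.19 as single samples were left out. In bulk samples, fewer cells of a type and less RNA per cell cannot be told apart.

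For each gene the squares around its mean were split into the part of the condition, the part of the replicate number and the rest. The medians over the 31 genes were 33.2%, 38.3% and 14.8%, beside 25.9%, 42.2% and 16.1% over all genes tested, and the replicate number took more than the condition in 17 of 31 genes (54.8%, beside 59.5%). The replicate number has more degrees of freedom than the condition, the shares of these genes lay near those of all genes, and nothing is read from them. For Tns1 the shares were 98.6% for the condition and 0.79% for the replicate number.

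Replicate 3 was examined on its own after its Itgb3 level was seen. Its level on the log2 scale was above the mean of replicates 1 and 2 in both control and I13 in 19 of the 31 genes (61.3%), beside 26.9% of all genes tested. The median of that difference was 0.215 in control and 0.159 in I13 for the 31 genes, against -0.014 and -0.075 over all genes. The difference was above 0.58 in both groups for Itgb3 (1.34 in control and 0.83 in I13) and Parvb (2.00 and 0.69), which is 6.5% of the 31 genes beside 2.5% of all genes. Between 27 and 188 fragments lay behind each Parvb value. Since Itgb3, one of the 31, led to this look at replicate 3, nothing is read from these shares and medians. Next came Ptk2b (0.55 and 0.70), Lims1 (0.65 and 0.44) and Nedd9 (0.32 and 0.83). No label says what the replicate number stands for, and why replicate 3 differed was not tested.

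**Figure D5:**
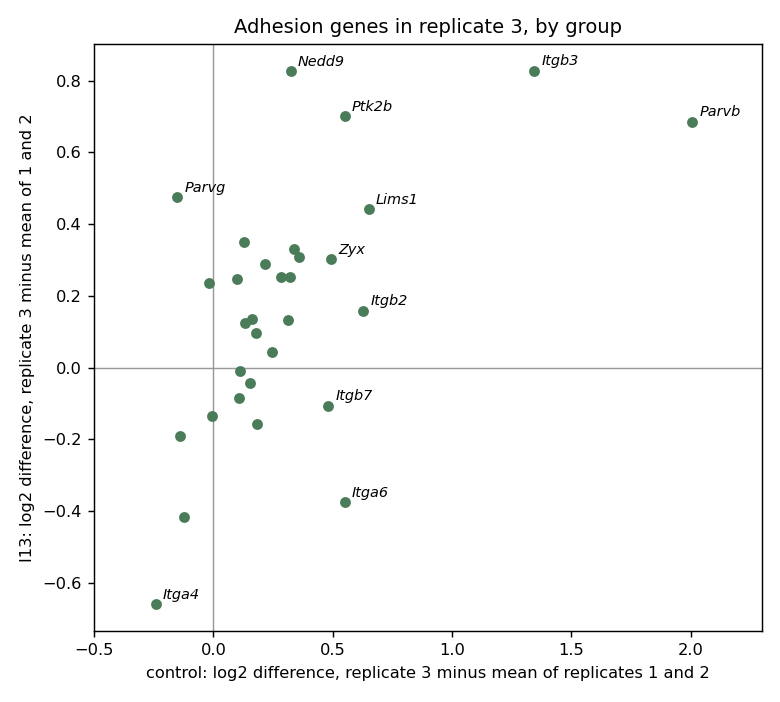
Log2 difference of replicate 3 from the mean of replicates 1 and 2 for the 31 genes, in control on the horizontal axis and in I13 on the vertical axis, with the names of genes past 0.45 in either group. The field where both differences are positive holds 19 of the 31 genes, with Itgb3 and Parvb past 0.58 on both axes.

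A wider set of 154 adhesion genes in 5 lists, none of them among the 38, was counted beside these. Of the 154, 134 had a row and 102 were compared, of which 51 were higher and 51 lower in I13, with a median log2 fold change of -0.006. limma without the block called none of the 102, with 20 (19.6%) at an unadjusted p below 0.05 beside 18.6% of all genes tested. With the block it called 2, Spp1 and Rap1b, both higher, beside 1.36% of all genes called higher. In that limma fit 41 (40.2%) had an unadjusted p below 0.05, beside 28.0% of all genes. The lists were chosen with earlier results of these data known, and nothing is read from these shares. limma's voom method on the recovered fragments called none of the 102 without the block, beside 6 of 12162 genes tested. With the block it called 4, Gsn and the junction protein F11r being added, beside 503 of the 12162.

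Spp1 encodes osteopontin, a secreted ligand of the integrins that hold Itgav. It stood at 115, 26.4 and 172 FPKM in control and at 476, 290 and 895 FPKM in I13, so that every I13 sample was above every control sample while values within a group spread widely. The log2 fold change was 2.63 with a standard error of 0.71 and an adjusted p of 0.138 in limma, and an adjusted p of 0.0313 with the block, and the log2 fold change was 1.82 when control replicate 2 was left out. Rap1b encodes a small GTPase that brings talin to integrins, and stood at 71.1, 75.3 and 105 FPKM in control and at 140, 145 and 181 FPKM in I13. Its groups did not overlap and its 3 pairs differed by 0.97, 0.95 and 0.78 on the log2 scale. The log2 fold change was 0.90 with a standard error of 0.17, with an adjusted p of 0.109 in limma and of 0.0205 with the block. Both calls with the block were lost when replicate number 2 was left out (adjusted p in limma of 0.209 for Spp1 and 0.216 for Rap1b) and when number 3 was left out (0.0788 and 0.0722).

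The medians of the 5 lists lay between -0.066 and 0.26. In the 11 further integrins and integrin partners compared, 4 were higher and 7 lower with a median log2 fold change of -0.066, from the tetraspanin Tspan32 at -0.26 to the tetraspanin Cd63 at 0.42. The 23 further adaptors, 9 higher and 14 lower, had a median of -0.039, from Ehd1, an endocytic recycling protein, at -0.61 to Fyb, the adaptor ADAP, at 0.42. The value of Ehd1 had a standard error of 0.64 and lay between -1.10 without control replicate 2 and -0.02 without I13 replicate 2. The 19 further kinases, phosphatases and Rap1 cycle genes, 10 higher and 9 lower, had a median of 0.009, from the Rap1 effector Rassf5 at -0.27 to Rap1b. The 41 genes of the actin cytoskeleton and small GTPases, 21 higher and 20 lower, had a median of 0.007, from Rhog at -0.37 to the actin-severing protein Gsn at 1.65. The 8 ligands and matrix genes, 7 higher and 1 lower, had a median of 0.26, from the LFA-1 ligand Icam2 at -0.43 to Spp1. None of these extremes but Spp1 and Rap1b was called in limma with or without the block.

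Gsn showed the same pattern of replicate 3 as Itgb3, at 65.1, 50.6 and 277 FPKM in control and at 214, 272 and 484 FPKM in I13. Its groups overlapped through control replicate 3, and its log2 fold change of 1.65 lay between 1.18 without control replicate 2 and 2.40 without control replicate 3. Its adjusted p in limma was 0.228, or 0.0504 with the block.

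Markers of the blood cell types that carry these integrins were read beside them. Of 10 macrophage markers, 6 had a row and 3 a mean of at least 0.5 FPKM, and their summed level was 23.0 to 46.5 FPKM in control and 53.1 to 87.2 FPKM in I13, without overlap. Adgre1 made up most of it, at a mean of 32.0 FPKM in control and 64.3 FPKM in I13. The means of Cd68 and Lyz2 were also higher in I13, at 4.08 against 5.83 FPKM and at 1.55 against 2.82 FPKM. The receptors Csf1r, Mrc1 and Mertk were at or below 0.07 FPKM in every sample. Of 9 megakaryocyte and platelet markers, 7 had a row and 4 a mean of at least 0.5 FPKM. The 7 summed to 108 to 168 FPKM in control and 103 to 136 FPKM in I13, with overlap, most of it Itga2b. Mean levels in control and I13 were 6.3 and 4.4 FPKM for Gp1ba, 3.8 and 5.8 for Gp9, and 0.969 and 0.233 for Treml1. Gp5 was at 0.353 FPKM or less, the platelet factor Pf4 at 0.083 or less and Gp6 at 0.01 or less. The part of these markers in the integrin differences was not tested.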

How the data were processed

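mRNA was sequenced from 3 control and 3 I13 samples, grouped by their titles. The authors deposited 1 table of FPKM per gene, and the labels name Trimmomatic, HISAT2, Cufflinks and HTSeq without roles or versions. FPKM values are relative to length and library, so a change in a few abundant genes shifts all others. Every per-sample column matched a sample.

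From the deposited FPKM, whole fragments were recovered for 22412 of 22413 genes (tolerance 0.03 of a fragment). Their share on listed genes was 99.44% to 99.47%, and values from few fragments carry their counting error. log2(FPKM + 0.1) of genes with a mean of at least 0.5 FPKM was fitted in limma 3.58.1 with a trend (R 4.3.3). The added 0.1 understates fold changes of low genes. The first fit had no covariate (4 residual degrees of freedom). The replicate number was taken to pair the samples because each same-numbered pair correlated above 0.1, although no label states a pairing. The fit with it as a block has 2 residual degrees of freedom, and its calls rest on this inferred pairing. The recovery and the fits were tested on simulated data. The simulated samples for the fits shared no effect of the replicate number, so the block was not checked in that setting. Figures used Python 3.11.15 and matplotlib 3.10.9.

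The genes and lists were chosen with earlier results of these data known. Values in every sample are given for Tns1, for genes without overlap and a log2 fold change of at least 0.58 in size, for the highest gene of each role and for genes called with the block. Of the 5 wider lists, called genes and the extremes of each are named. Itga2b, Itgb4 and Rap1a, and values per sample of Tns2 and Parvb, were added after the values were seen. Alternatives covered pseudocount, filter, scaling, trend, voom, the block and leaving out samples. No mouse sequence or coordinate was used here. Of the megakaryocyte list, 1 marker is not reported here.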

Additional observations from a re-analysis of the deposited data

How the results depend on the processing

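Over 20 alternatives the log2 fold change of each of the 31 genes moved by less than its replicate spread, except Tns1 with a pseudocount of 1 (-0.99), and none past 0.58 turned its direction. Of the weaker ones, Ptk2b, Itga5, Itga6, Itgal, Parvb, Fermt3, Vasp, Bcar1 and Lpxn changed sign in 1 to 6 alternatives. Counts of calls moved more. Over all genes, limma called 5 without the block, 2 under median-ratio scaling, quantile normalization or a pseudocount of 0.01, 8 without a filter or without a trend, 230 with the replicate block and 503 with voom and the replicate block. Leaving out single samples gave 0 to 0 calls (between 1478 and 2482 genes had an unadjusted p under 0.05). With the replicate block and without replicate number 1, 2 or 3 the counts were 83, 0 and 0 (2665, 1638 and 3160 unadjusted). Of the 31 adhesion genes, 1 was called without the block, 0 under a pseudocount of 0.01, no filter, median-ratio scaling or quantile normalization, and 3 with the replicate block. With voom and the replicate block 6 were called (Itgav, Itgb7 and Parvg added), beside 503 of 12162 genes tested. Without single samples or whole replicate numbers 0 were called. Tns1 was chosen on this same contrast, and nothing is read from these counts. Of the wider lists, 0 were called without the block, 2 with the replicate block, 4 with voom and the block, and 2, 0 and 0 with the block and without replicate number 1, 2 or 3. Among alternatives chosen after seeing the data, the 12 adhesion genes without overlap became 12 to 17 without single samples (30.9% to 41.7% of all genes), and 20 without both samples of number 3 (53.8% of all genes). The count was 11 with samples rescaled to the same FPKM total (22.7% of all genes). It was 10 under median-ratio scaling (25.2%) and 13 on recovered fragments (25.9%). The cause of these changes was not tested, but fewer samples leave fewer degrees of freedom and make overlap less likely.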
